A study of Mus musculus with 20 samples.

Results

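Bone morphogenetic proteins (BMPs) and growth differentiation factors (GDFs) were followed in ATDC5, a mouse chondrogenic cell line, together with the secreted antagonists that bind them. The set held 10 of the 27911 genes measured: the ligand genes Bmp2, Bmp3, Bmp4, Bmp6, Bmp7, Gdf5 and Gdf6, and the antagonist genes Nog, Grem1 and Chrdl1. They were chosen by gene symbol, and all 10 symbols were found. Polyadenylated RNA was sequenced from 3 Kmt2d+/+ clones (10-5, 10-7 and 10-8, here clones 1, 2 and 3) and 2 Kmt2d-/- clones (10-7 and 96-9, here clones 1 and 2). Kmt2d encodes a histone H3 lysine 4 methyltransferase, and the Kmt2d-/- clones had lost its catalytic SET domain on both alleles. Each clone was sampled undifferentiated at day 0 and after 7 days in chondrogenic medium with insulin, transferrin, selenium, ascorbic acid and β-glycerophosphate, so that 10 libraries fell into 4 groups. Every clone was a separate stable line of ATDC5 and served as the replicate.

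BMPs and GDFs are secreted dimers of the TGF-β superfamily. They bind type I and type II serine/threonine kinase receptors, which phosphorylate Smad1, Smad5 and Smad9. These enter the nucleus with Smad4 and switch on genes such as the Id genes and the inhibitory Smads, Smad6 and Smad7, which feed back on the receptors. Noggin, gremlin and chordin-like proteins bind ligands outside the cell and keep them from the receptors. In the embryonic skeleton BMP signalling is needed for mesenchymal cells to condense and become chondrocytes, and GDF5 marks the forming joint.

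Levels are given as CPM, with library sizes adjusted by TMM. Libraries held 35792709 to 66237183 counts, and 3 counts were 0.0453 to 0.0838 CPM of the unadjusted totals. Kmt2d stood at 173 to 211 CPM in the Kmt2d+/+ libraries and 113 to 205 CPM in the Kmt2d-/- libraries, with a log2 difference of -0.39 at day 7 (edgeR adjusted p = 0.363) and -0.16 at day 0 (edgeR adjusted p = 0.731). A count over the whole gene does not check the loss of the SET domain. All 11 cartilage markers (Col2a1, Acan, Sox9 and others) reached 1 CPM in at least 1 library. Their summed level was 45.2 to 405 CPM across the Kmt2d+/+ clones at day 0 and 587 to 1022 CPM at day 7. In the Kmt2d-/- clones it was 1959 to 6161 CPM at day 0, and 26633 to 30703 CPM at day 7. The 6 osteoblast markers summed to 220 to 630 CPM at day 0 and 916 to 1519 CPM at day 7 across the Kmt2d+/+ clones. Across the Kmt2d-/- clones they summed to 303 to 462 and 924 to 1129 CPM. The 5 tendon markers summed to 91.6 to 152 CPM (Kmt2d+/+) and 158 to 314 CPM (Kmt2d-/-) at day 7, and they went different ways. Fmod was higher in both Kmt2d-/- clones, at 280 and 129 CPM against 25.5 to 71.6 CPM. Scx was lower in both (11.6 and 11.2 against 26.3 to 42.2 CPM), as was Mkx (22.1 and 17.7 against 23.1 to 38.7 CPM). Thbs4 and Tnmd had at most 11 and 1 counts in any library. The part of the cartilage, osteoblast and tendon genes in the differences below was not tested. None of the 6 skeletal muscle and 5 immune markers reached 1 CPM in any library. Of 5 endothelial markers 3 reached it, Pecam1 at 4.46 to 8.17 CPM, Vwf at 3.50 to 10.0 CPM and Kdr at 1.44 CPM at most. Cdh5, also on that list, had at most 6 counts. Of 5 epithelial markers 1 reached it, Cdh1 at 1.37 CPM at most. Among the 6 adipocyte markers 2 reached 1 CPM, Pparg at 5.50 to 24.3 CPM and Fabp4 at 2.20 CPM at most. Plin1, Cidec and Lep had at most 3 counts. In bulk RNA, fewer cells of a type and less RNA per cell cannot be told apart.

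Promoters are shown for Bmp4 and Grem1, the only genes of the set in the RefSeq promoter table with a window outside annotated exons. They were also the ligand and the antagonist with the highest mean levels per gene length in undifferentiated Kmt2d-/- clones. Bmp4 (ENSMUSG00000021835) lies on the minus strand of chromosome 14 at 46383520 to 46390669, and Grem1 (ENSMUSG00000074934) on the minus strand of chromosome 2 at 113746164 to 113758646 (GRCm38). The 250 bases before the start of each, from RefSeq on GRCm38.p6, are chr14:46390670-46390919 and chr2:113758649-113758898. Capitals mark matches to the motifs searched.
Bmp4: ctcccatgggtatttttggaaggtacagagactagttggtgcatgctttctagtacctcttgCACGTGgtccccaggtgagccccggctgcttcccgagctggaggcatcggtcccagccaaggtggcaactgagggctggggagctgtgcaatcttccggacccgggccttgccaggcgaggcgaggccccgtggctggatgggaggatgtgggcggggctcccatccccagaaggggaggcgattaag
Grem1: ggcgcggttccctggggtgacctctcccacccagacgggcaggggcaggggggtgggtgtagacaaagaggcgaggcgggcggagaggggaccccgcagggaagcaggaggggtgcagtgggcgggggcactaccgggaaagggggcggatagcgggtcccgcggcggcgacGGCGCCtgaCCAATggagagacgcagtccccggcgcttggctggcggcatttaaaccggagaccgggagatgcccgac
The Grem1 promoter was 72% G and C and held 24 CG pairs, an observed over expected ratio of 0.797. That of Bmp4 was 63.2% G and C and held 11 CG pairs, a ratio of 0.451.

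The 6 motifs searched on both strands were GGCGCC (a GC-rich element bound by Smad1 and Smad5), the Smad-binding palindrome GTCTAGAC, the E-box CACGTG, the TATA box TATAAA, the CCAAT box CCAAT and the Sox motif AACAAT. None overlaps another in these windows. Bmp4 held CACGTG 188 bases upstream, a motif in 6.02% of the 32851 promoters of the table. Grem1 held GGCGCC 78 bases and CCAAT 69 bases upstream, motifs in 9.59% and 33.8% of promoters. The other 3 motifs were in neither window, and 0.167% of promoters held GTCTAGAC, 12.4% TATAAA and 9.42% AACAAT. A match describes letters and is not evidence of binding.

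Bmp4 supplied nearly all RNA of the 7 ligands, a sum that leaves out ligands outside the set such as Gdf11. Per kilobase of annotated exon, the scale used to compare genes, Bmp4 made up 99.8% to 99.9% of the summed level of the 7 ligands in every library at day 0. At day 7 it made up 98.0% to 99.2% in the Kmt2d+/+ clones and 88.6% and 91.6% in Kmt2d-/- clones 1 and 2. Bmp6 took 7.56% and 7.42% in those 2 libraries and Gdf5 3.68% and 0.716%. In the Kmt2d+/+ clones at day 7 Bmp6 took 0.147% to 1.44%.

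The order of levels per kilobase was Bmp4, Chrdl1, Grem1 and Nog in the Kmt2d+/+ clones at day 0, at 104 ± 24.5, 19.9 ± 11.995, 7.59 ± 4.39 and 5.39 ± 5.34 CPM per kilobase (SD, n = 3). The ranges of Chrdl1, Grem1 and Nog overlapped there, although Chrdl1 was above Grem1 and Nog within each of the 3 clones. At day 7 Chrdl1 was again above both within all 3 clones. Its range now lay above those of Nog and Grem1, which overlapped each other. In the Kmt2d-/- clones at day 0 Bmp4 led with 323 ± 232 CPM per kilobase (SD, n = 2), followed by Grem1, Chrdl1 and Nog with overlapping ranges. The order was the same within both clones. At day 7 their order was Bmp4, Chrdl1 at 63.0 ± 8.63, Nog at 12.5 ± 2.59, Grem1 at 11.6 ± 10.1 and Bmp6 at 8.37 ± 1.96 CPM per kilobase. Of these, the last 3 could not be ordered beyond the spread of the 2 clones, except that Nog was above Bmp6 in both. The other ligands stayed under 1 CPM per kilobase on average in every group except Gdf5, which reached 2.17 ± 1.74 in the Kmt2d-/- clones at day 7.

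**Figure D1:**
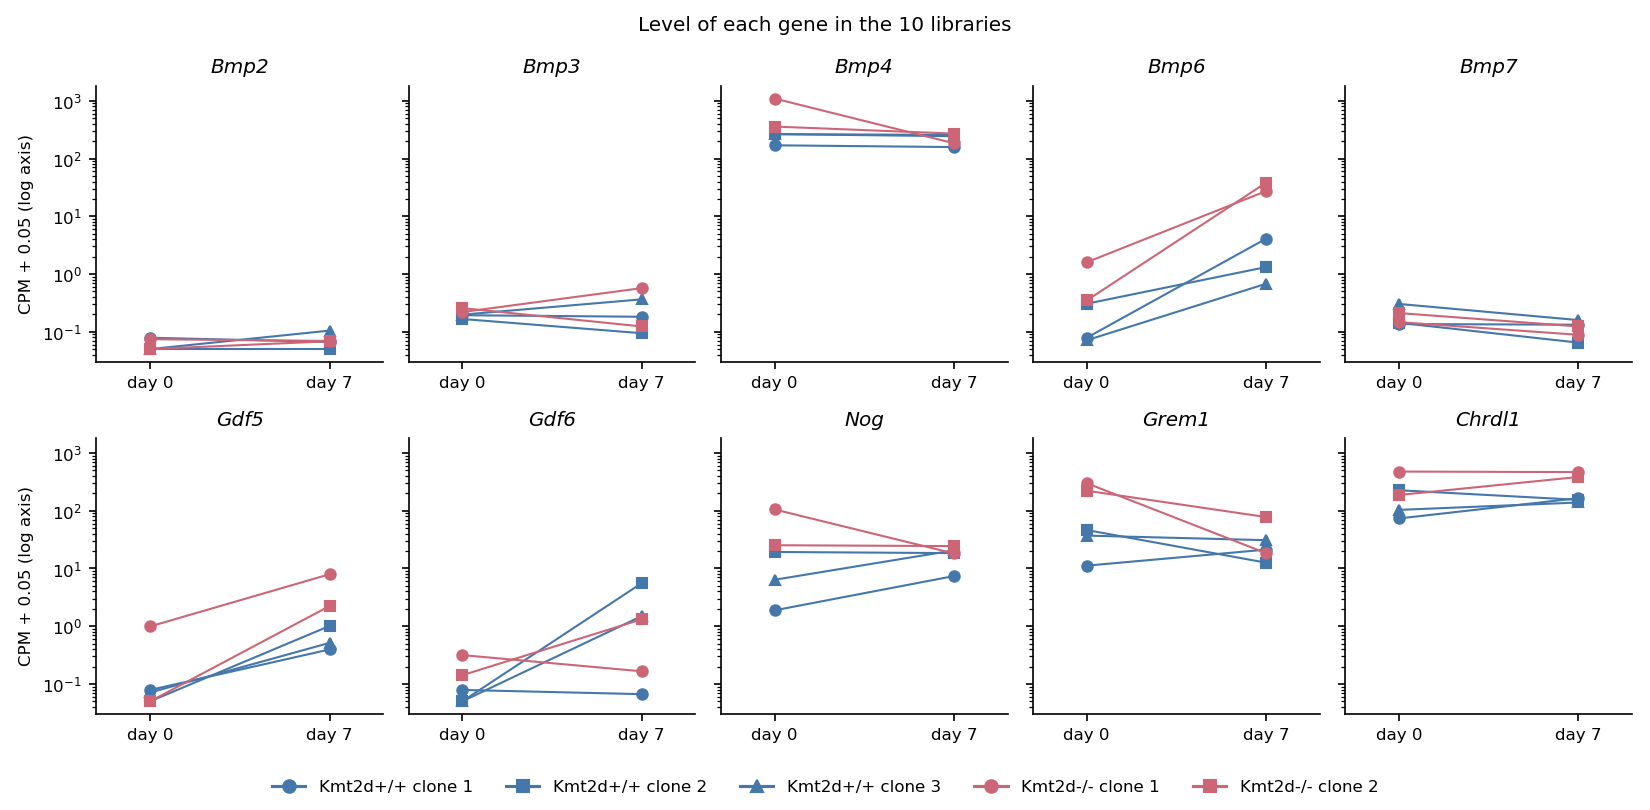
Level of the 10 genes at day 0 and day 7, as CPM plus 0.05 on a log axis, with 1 line per clone. Bmp4 lies between 158 and 1096 CPM in all 10 libraries, Bmp6 and Gdf5 end higher than they began in all 5 clones, and Grem1 separates the genotypes at day 0 but not at day 7.

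The first comparison asked how the 10 genes differed between genotypes before differentiation. Of the 8 genes with enough counts to test, none passed at an edgeR adjusted p under 0.05, where 2.15% of all 15467 genes tested did. All 8 log2 fold changes were positive (Kmt2d-/- over Kmt2d+/+), with a median of 2.94 against 0.01 over all genes tested. That median takes in Gdf5 and Gdf6, which were fitted against Kmt2d+/+ groups with 2 and 1 summed counts. Without Kmt2d-/- clone 1 the change of Gdf5 was -2.97, and the other genes stayed positive under every alternative. For 6 of the 8 the unadjusted p was under 0.05, as it was for 20.2% of all genes. For 6 every Kmt2d-/- clone was above every Kmt2d+/+ clone, an arrangement that 18.6% of all genes showed, and for none was every one below, against 18.3%. The 6 were Bmp4, Nog, Grem1, Bmp6, Gdf6 and Bmp3, of which Gdf6 and Bmp3 had at most 11 counts per library at day 0.

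Grem1, which encodes gremlin-1, an antagonist of BMP2, BMP4 and BMP7, had the smallest adjusted p of the 8 tested genes. It stood at 11.1, 46.3 and 37.0 CPM for Kmt2d+/+ clones 1, 2 and 3 at day 0 and at 300.0 and 222 CPM for Kmt2d-/- clones 1 and 2. The lowest Kmt2d-/- level was above the highest Kmt2d+/+ level. The log2 fold change was 3.05 (SE 0.70, edgeR adjusted p = 0.0574). It passed in DESeq2 (adjusted p = 1.34e-04), where 11% of genes did, and over all alternatives the adjusted p ranged from 1.34e-04 to 0.255.

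Nog (ENSMUSG00000048616, chromosome 11, 89300638 to 89302332, minus strand), the single-exon gene of noggin, stood at 1.83, 19.3 and 6.32 CPM across the Kmt2d+/+ clones at day 0. It stood at 105 and 25.2 CPM for Kmt2d-/- clones 1 and 2. Both were above all Kmt2d+/+ clones, and clone 1 was far above clone 2. The log2 fold change was 2.83 (SE 0.89, edgeR adjusted p = 0.123), with DESeq2 passing it (adjusted p = 0.00755, range over alternatives 0.00755 to 0.530). Without Kmt2d-/- clone 1 it was 1.46.

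Bmp4, a ligand of the BMPR1A and BMPR1B receptors, stood at 169.6, 265 and 265 CPM across the Kmt2d+/+ clones at day 0 and at 1096 and 358 CPM across the Kmt2d-/- clones. Clone 1 again held the highest value. On the log2 scale the change was 1.64 (SE 0.43, edgeR adjusted p = 0.0799), and DESeq2 passed it (adjusted p = 0.00565, range over alternatives 0.00565 to 0.427). Without Kmt2d-/- clone 1 it was 0.62. The last 89 bases of Bmp4 overlap the protein-coding gene Gm15217 on the other strand, which held 35 to 204 counts per library.

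Chrdl1 (ENSMUSG00000031283, chromosome X, 143285674 to 143394262, minus strand) encodes chordin-like 1, a BMP4-binding protein. It stood at 73.5, 226 and 103 CPM across the Kmt2d+/+ clones at day 0 and at 478 and 187 CPM across the Kmt2d-/- clones, so the groups overlapped. The log2 fold change was 1.31 (SE 0.48, edgeR adjusted p = 0.172). It passed without Kmt2d+/+ clone 2, at 1.91 (edgeR adjusted p = 0.04995, range over alternatives 0.04995 to 0.708), and was 0.48 without Kmt2d-/- clone 1.

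The ligands with few reads were also low at day 0 in both genotypes. Bmp6 stood at 0.0286, 0.255 and 0.0211 CPM across the Kmt2d+/+ clones and at 1.55 and 0.298 CPM across the Kmt2d-/- clones. Clone 2 was barely above the highest Kmt2d+/+ value, and a log2 fold change of 3.13 (SE 1.12, edgeR adjusted p = 0.162) was 1.51 without Kmt2d-/- clone 1. DESeq2 passed it (adjusted p = 0.0216, range over alternatives 0.0216 to 0.640).

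Gdf5 had 1, 0 and 1 counts in the Kmt2d+/+ clones at day 0 and 39 and 0 in Kmt2d-/- clones 1 and 2. The ratio of summed counts was 28.8 (exact binomial 95% interval 7.45 to 246, counting error only), and it rested on 1 clone. The edgeR adjusted p was 0.151, and DESeq2 passed it (adjusted p = 0.0328). Gdf6 had 1, 0 and 0 counts against 11 and 4, a ratio of 22.1 (exact binomial 95% interval 3.41 to 932, edgeR adjusted p = 0.363). Bmp3 had 5, 5 and 7 counts against 7 and 9 (log2 fold change 0.46, SE 0.95, edgeR adjusted p = 0.827).

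At day 7 the same comparison asked which of these differences were present after differentiation. None of the 8 genes passed in edgeR, where 1.87% of all genes tested did. The unadjusted p was under 0.05 for 3, against 19.9% of all genes, and 7 of the 8 log2 fold changes were positive. The Kmt2d-/- clones were above all Kmt2d+/+ clones for Bmp6, Gdf5 and Chrdl1, as for 17.9% of all genes, and below them for none, against 19.8%.

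Bmp6 (ENSMUSG00000039004, chromosome 13, 38345107 to 38500302, plus strand), a ligand expressed by maturing chondrocytes, stood at 4.03, 1.27 and 0.627 CPM across the Kmt2d+/+ clones at day 7. It stood at 27.2 and 38.0 CPM across the Kmt2d-/- clones. These were 1416 and 2074 counts against 46 to 245, and the groups did not overlap. On the log2 scale the change was 4.05 (SE 0.98, edgeR adjusted p = 0.0694). limma-voom passed it (adjusted p = 0.0142), as did DESeq2 (adjusted p = 3.97e-04), where 10.4% of genes did, and the adjusted p reached 0.263 over the alternatives. The log2 fold change lay between 3.62 and 5.10 in all of them.

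Bmp6 lies in a stretch of chromosome 13, the first 60 Mb, whose 245 tested genes had a median log2 difference of 0.42 between genotypes at day 7 and 0.47 at day 0. With the regional level of each library subtracted, the difference of Bmp6 was 3.67 at day 7 (edgeR adjusted p = 0.107). The last 224 bases of Bmp6 overlap Txndc5 on the other strand, an endoplasmic reticulum protein gene with 9890 to 56589 counts per library. Txndc5 reads were more numerous in both Kmt2d-/- libraries at day 7, at 41035 and 56589 counts, than in the Kmt2d+/+ libraries, at 18778 to 23648. The sources used here do not give strand settings, and the part of the overlap in the Bmp6 counts was not tested.

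Chrdl1 stood at 165, 154 and 139 CPM across the Kmt2d+/+ clones at day 7 and at 467 and 385 CPM across the Kmt2d-/- clones. The spread within each genotype was small and the groups stood apart. The log2 fold change was 1.48 (SE 0.48, edgeR adjusted p = 0.136). It passed when only the day 7 libraries were fitted (adjusted p = 0.0441) and in DESeq2 (adjusted p = 0.0284), with a range over alternatives of 0.0284 to 0.388. The difference lay between 1.33 and 1.61 under all of them.

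Gdf5 (ENSMUSG00000038259, chromosome 2, 155941023 to 155945367, minus strand), the joint-interzone ligand, stood at 0.345, 0.958 and 0.464 CPM across the Kmt2d+/+ clones at day 7. It stood at 7.89 and 2.18 CPM across the Kmt2d-/- clones, both above the Kmt2d+/+ clones. On the log2 scale the change was 3.09 (SE 1.20, edgeR adjusted p = 0.201). It was 1.88 without Kmt2d-/- clone 1 and 3.74 without clone 2. It overlaps Gm15557 on the other strand over 1728 bases, a gene with 0 to 11 counts per library. The summed level of 6 other joint and articular markers (Prg4, Erg, Sfrp2, Wnt9a, Osr2 and Sox5) was 40.2 to 97.5 CPM across the Kmt2d+/+ clones at day 7 and 94.6 to 135 CPM across the Kmt2d-/- clones, and its part in the Gdf5 difference was not tested. These markers went different ways: Erg and Sox5 were higher in both Kmt2d-/- clones than in all Kmt2d+/+ clones at day 7, Wnt9a and Osr2 were lower in both, and Prg4 and Sfrp2 overlapped.

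For Bmp4, Grem1 and Nog the estimated differences at day 7 were below those at day 0, and the interaction that tests this did not pass for any of them. Bmp4 stood at 158, 257 and 244 CPM against 184 and 270.4 CPM (log2 difference 0.05, SE 0.44, edgeR adjusted p = 0.969). Grem1 stood at 21.2, 12.5 and 30.9 CPM against 18.4 and 77.7 CPM (1.16, SE 0.68, edgeR adjusted p = 0.384). Nog stood at 7.34, 18.4 and 20.6 CPM against 18.2 and 24.4 CPM (0.46, SE 0.87, edgeR adjusted p = 0.828). In all 3 genes the genotypes overlapped at day 7.

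Gdf6 (ENSMUSG00000051279, chromosome 4, 9844372 to 9862345, plus strand), a ligand close to GDF5, had 1, 374 and 106 counts in the Kmt2d+/+ clones at day 7 and 6 and 69 in the Kmt2d-/- clones. Its level varied more among clones of 1 genotype than between genotypes (log2 fold change -1.75, SE 1.61, edgeR adjusted p = 0.609). Bmp3, whose product opposes other BMPs in bone, had 8, 3 and 23 counts against 27 and 4 (0.84, SE 0.88, edgeR adjusted p = 0.663).

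**Figure D2:**
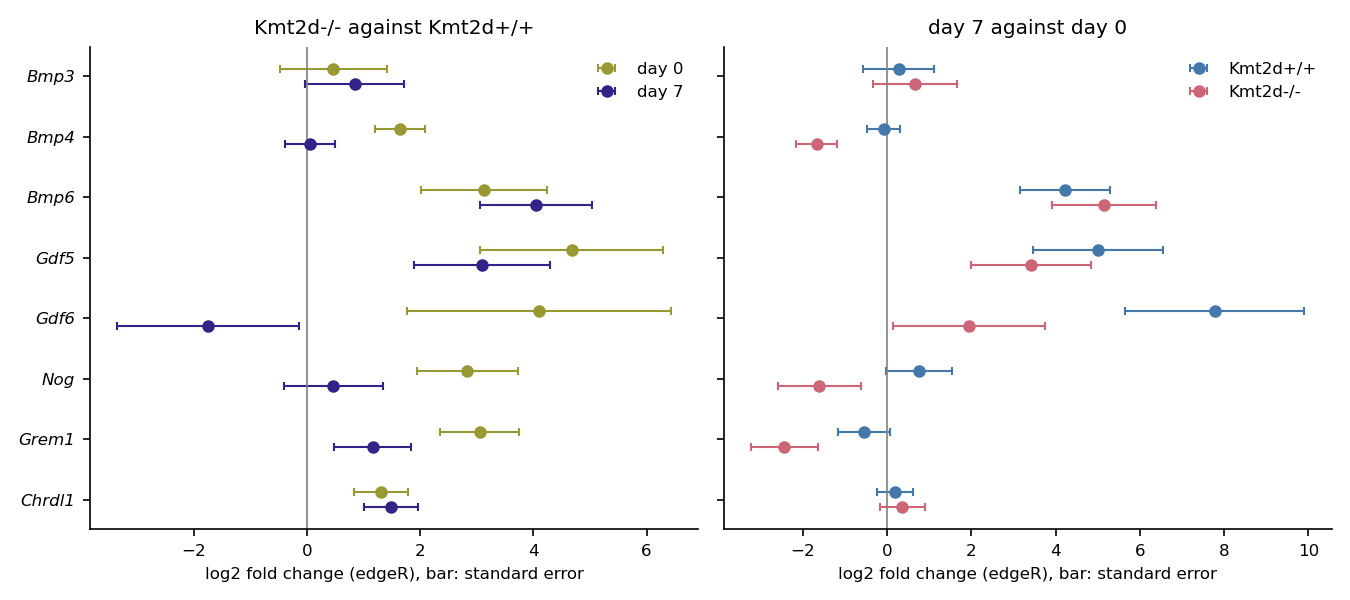
Log2 fold changes of the 8 tested genes in edgeR with their standard errors, Kmt2d-/- against Kmt2d+/+ at each day on the left and day 7 against day 0 in each genotype on the right. Values of Gdf5 and Gdf6 against groups with 0 to 3 counts are fitted estimates and not bounds. Bmp6, Gdf5, Chrdl1 and Bmp3 lie to the right of 0 in all 4 comparisons.

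The next comparison asked what 7 days of differentiation did to the 10 genes in the Kmt2d+/+ clones. None of the 8 tested genes passed in edgeR, where 5.08% of all genes did, and 3 had an unadjusted p under 0.05, against 24.7% of all genes. With a term for each clone, which compares each clone with itself, 18.0% of all genes passed, and so did Bmp6, Gdf5 and Gdf6. These 3 are ligands that were near 0 at day 0. Bmp6 and Gdf5 were higher at day 7 than in any library of day 0, as were 16.2% of all genes, and none was lower in all, against 14.7%.

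Bmp6 went from 0.0286 to 4.03 CPM in clone 1, from 0.255 to 1.27 CPM in clone 2 and from 0.0211 to 0.627 CPM in clone 3. These were 1, 11 and 1 counts at day 0 and 245, 86 and 46 at day 7. The log2 fold change was 4.23 (SE 1.06, edgeR adjusted p = 0.0547). It was 4.03 with the clone term, where Bmp6 passed (edgeR adjusted p = 0.0390). It passed also in DESeq2 (1.06e-04, where 15.1% of genes did), without the filter on low counts (0.0463) and in flow-cell run 1 alone (0.0490), and its adjusted p ranged from 1.06e-04 to 0.309 over the alternatives. Without Kmt2d+/+ clone 1 the log2 fold change was 2.78, and without clone 2 it was 6.44.

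Gdf5 had 2 counts over the 3 libraries at day 0 and 21, 65 and 34 counts at day 7. The ratio of summed counts was 37.3 (exact binomial 95% interval 10.1 to 311). The edgeR adjusted p was 0.0880, and 0.0396 with the clone term. It passed also in DESeq2 (0.00849), with only the Kmt2d+/+ libraries (0.0327) and without either Kmt2d-/- clone (0.0345 and 0.0375), and reached 0.382 at most.

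Gdf6 had 1 count over the 3 libraries at day 0. At day 7 clone 1 still had 1 count and clones 2 and 3 had 374 and 106. The ratio of summed counts was 299 (exact binomial 95% interval 53.4 to 11825), and it rested on 2 of 3 clones. The edgeR adjusted p was 0.0667, and 0.0476 with the clone term (range over alternatives 3.86e-04 to 0.355).

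The 4 abundant members did not pass, and the antagonists differed in direction among the Kmt2d+/+ clones. Bmp4 was 0.932, 0.971 and 0.920 times its day 0 level in clones 1, 2 and 3 (log2 fold change -0.09, SE 0.39, edgeR adjusted p = 0.916). Grem1 was 1.90, 0.271 and 0.833 times its day 0 level, Nog 4.002, 0.955 and 3.25 times and Chrdl1 2.25, 0.682 and 1.34 times. In these 3 antagonist genes clone 2 had the highest level at day 0 and was the clone with the lowest ratio. Their edgeR adjusted p was 0.628, 0.604 and 0.836.

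In the Kmt2d-/- clones none of the 8 tested genes passed from day 0 to day 7 in edgeR, where 1.27% of all genes did. Unadjusted p was under 0.05 for 4 of them, against 14.8% of all genes. Bmp6 and Gdf5 were higher in both day 7 libraries than in both of day 0, as were 22.9% of all genes. Bmp4, Nog and Grem1 were lower in both, as were 21.9% of all genes. With the clone term 5.57% of all genes passed, Bmp6 among them.

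Bmp6 went from 1.55 to 27.2 CPM for Kmt2d-/- clone 1 and from 0.298 to 38.0 CPM in clone 2. On the log2 scale the change was 5.14 (SE 1.23, edgeR adjusted p = 0.0885), and 5.39 with the clone term (edgeR adjusted p = 0.0384). It passed in limma-voom (0.0326) and DESeq2 (3.14e-05, where 6.53% of genes did), and its adjusted p reached 0.527 when clone 2 was left out.

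Grem1 went from 300.0 to 18.4 CPM for Kmt2d-/- clone 1 and from 222 to 77.7 CPM in clone 2 (log2 fold change -2.44, SE 0.79, edgeR adjusted p = 0.184, DESeq2 adjusted p = 0.0136). Bmp4 went from 1096 to 184 CPM and from 358 to 270.4 CPM (-1.68, SE 0.49, edgeR adjusted p = 0.146, DESeq2 adjusted p = 0.0151). In clone 1 both stood several times lower at day 7, whereas Bmp4 of clone 2 was at 0.755 times its day 0 level. Nog went from 105 to 18.2 CPM in clone 1 and from 25.2 to 24.4 CPM in clone 2 (-1.62, SE 0.99, edgeR adjusted p = 0.521). Without clone 1 the log2 fold change was -0.41 for Bmp4, -0.06 for Nog and -1.52 for Grem1.

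Chrdl1 was at 478 and then 467 CPM in Kmt2d-/- clone 1 and went from 187 to 385 CPM in clone 2 (0.36, SE 0.53, edgeR adjusted p = 0.831). Gdf5 had 39 and 0 counts at day 0 and 410 and 119 at day 7 (3.42, SE 1.43, edgeR adjusted p = 0.312). That estimate rested on the 39 counts of clone 1, and it was 9.86 without clone 1, against a library at 0, and 3.06 without clone 2. Gdf6 had 11 and 4 counts and then 6 and 69, in opposite directions in the 2 clones (edgeR adjusted p = 0.706). Bmp3 had 7 and 9 counts and then 27 and 4 (0.65, SE 1.00, edgeR adjusted p = 0.836).

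The difference of the day effects between genotypes was tested as an interaction. In edgeR 0 of the 15467 genes passed, 3.67% had an unadjusted p under 0.05, and DESeq2 passed 27 genes (0.203%), none of them among the 8. With the clone term 0 passed. Bmp4 was the only one of the 8 with an unadjusted p under 0.05 in edgeR (0.0313, interaction log2 -1.59, SE 0.63, edgeR adjusted p = 1.00). Without Kmt2d-/- clone 1 its interaction was -0.32. The interaction of Nog was -2.37 (SE 1.26), of Grem1 -1.89 (SE 0.98), of Bmp6 0.92 (SE 1.55), of Chrdl1 0.17 (SE 0.68) and of Bmp3 0.38 (SE 1.31). For Gdf6 it was -5.84 (SE 2.85, between -8.98 and -3.68 over the alternatives) and for Gdf5 -1.59 (SE 1.97). Both are fitted values against day 0 groups with 1 and 2 counts and are no bounds. Bmp2 and Bmp7 were not tested.

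Bmp2 and Bmp7 had too few counts to test. Bmp2 (ENSMUSG00000027358, chromosome 2, 133552159 to 133562885, plus strand), a ligand that drives chondrogenesis when added to many mesenchymal cells, had 0 to 4 counts per library, so that all groups were near the floor. Bmp7 (ENSMUSG00000008999, chromosome 2, 172868012 to 172940321, minus strand) had 3, 4 and 12 counts in the Kmt2d+/+ clones at day 0 and 5, 1 and 8 at day 7. In the Kmt2d-/- clones it had 4 and 7, then 2 and 4. Bmp3 (ENSMUSG00000029335, chromosome 5, 98854415 to 98884396, plus strand) passed the filter with 3 to 27 counts per library. Bmp3 passed in no comparison. For Bmp2 and Bmp7, which were not tested, the counts allow no statement on a difference.

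The summed levels showed how ligands and antagonists stood to each other per kilobase. The 3 antagonists summed to 0.194, 0.476 and 0.237 times the 7 ligands in Kmt2d+/+ clones 1, 2 and 3 at day 0 and to 0.473, 0.315 and 0.367 times at day 7. In Kmt2d-/- clones 1 and 2 the ratio was 0.420 and 0.603 at day 0 and 0.912 and 0.685 at day 7. Both Kmt2d-/- libraries of day 7 lay above all 6 Kmt2d+/+ libraries, and those of day 0 overlapped with them. Chrdl1 made up 82.0% and 63.2% of the antagonist sum in the Kmt2d-/- clones at day 7 and 34.5% and 28.8% at day 0, when Grem1 made up 35.3% and 55.7%. These ratios are descriptions of RNA and were not tested. They leave out other binding proteins and antagonists, such as Fstl1, Twsg1, Smoc2, Crim1 and Nbl1. The estimated genotype differences of those at day 7 went both ways, so the ratio depends on the genes summed.

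**Figure D3:**
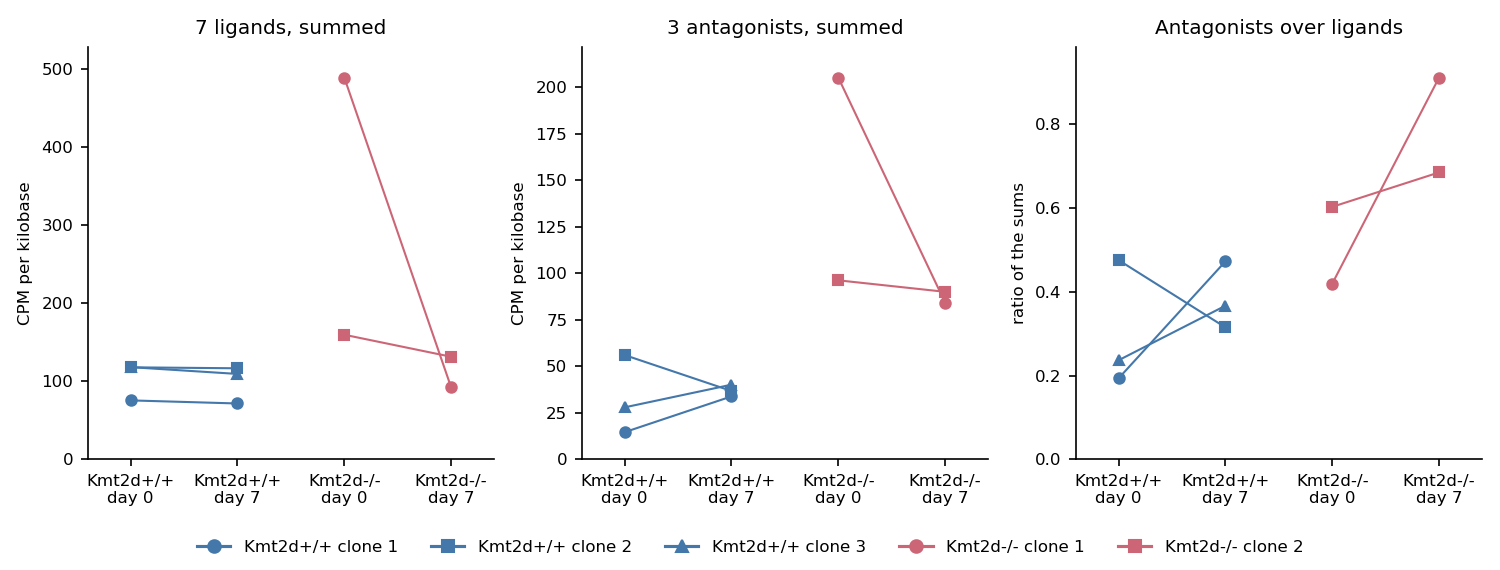
Summed level of the 7 ligands (left) and the 3 antagonists (middle) in CPM per kilobase, and their ratio (right), with 1 line per clone. The ligand sum of Kmt2d-/- clone 1 at day 0 is 488 CPM per kilobase against 71.5 to 159 in the other 9 libraries, and the ratio is highest in the Kmt2d-/- clones at day 7.

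Among the members, levels over the 10 libraries went together for Bmp4 with Grem1 (Pearson r = 0.829 of log2 CPM plus 0.5) and Nog (0.801), and for Bmp6 with Gdf5 (0.880). Nog also went with Chrdl1 (0.794) and Grem1 (0.736), and Chrdl1 with Bmp6 (0.724) and Gdf5 (0.722). Bmp4 stood at 1096 CPM in Kmt2d-/- clone 1 at day 0 and at 158 to 358 CPM in the other libraries. The weight of that library in these values was not tested. The 10 libraries share clones and depth, and the values are descriptions. Of 11024 other genes compared, Bmp6 was most like the connexin gene Gjc3 (r = 0.985) and Itih5l-ps (0.981), and Gdf5 was most like Srpx (0.956) and Fuca1 (0.955). Srpx stood at 185 and 46.8 CPM across the Kmt2d-/- clones at day 7 and at 0.296 to 1.65 CPM across the Kmt2d+/+ clones.

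Gdf6 was most like Oas1a (r = 0.978), an interferon-induced enzyme gene, and Gm6548 (0.973). Oas1a stood at 0.0822, 143 and 6.03 CPM for Kmt2d+/+ clones 1, 2 and 3 at day 7 and at 0.442 and 5.24 CPM across the Kmt2d-/- clones, which is the order of the Gdf6 counts in each genotype. Bmp4 was most like Med13l (0.899) and Gprc5a (0.897), Grem1 like Dnajb14 (0.957) and Palm2 (0.938), Nog like Tmem50a (0.921) and Ahnak2 (0.912), Chrdl1 like Prkg1 (0.976) and Dnajc30 (0.972), and Bmp3 like Srebf1 (0.937) and Cers1 (0.867).

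Other genes of the pathway were read from lists, and a gene is said to have passed, risen or fallen by the edgeR test unless another is named. That test passed 5.08% of all genes in the Kmt2d+/+ day comparison, 1.27% in the Kmt2d-/- one, 1.87% between genotypes at day 7 and 2.15% at day 0. The clone term passed 18.0% and 5.57% in the day comparisons, and DESeq2 passed 15.1%, 6.53%, 10.4% and 11% in the 4 comparisons as ordered above. Of 8 tested BMP and GDF ligands outside the 10 genes, 1 rose in the Kmt2d+/+ clones from day 0 to day 7 and none fell. Their median log2 fold change was 1.40 against 0.03 over all genes tested. That median takes in genes near the floor. Mean levels at day 0 and day 7 were 0.0295 and 0.113 CPM for Bmp5 and 0.0243 and 0.160 CPM for Bmp15. The change of Gdf11 was 0.49 (SE 0.31, edgeR adjusted p = 0.364). The riser was Bmp8a, at 0, 0.0232 and 0.0421 CPM before and 4.84, 0.988 and 3.45 CPM after differentiation (edgeR adjusted p = 0.0245). Its 3 and 614 summed counts gave a ratio of 127 (exact binomial 95% interval 43.3 to 618). It stood at 15.0 and 10.3 CPM across the Kmt2d-/- clones at day 7. Its counts are uncertain because Bmp8b is a close copy that could share reads with it. With the clone term Gdf7 passed too in the Kmt2d+/+ clones, and Bmp8a in the Kmt2d-/- clones, where DESeq2 passed it as well. The most abundant ligand of the list per length was Gdf11, at 60.5 ± 20.3 CPM across the Kmt2d+/+ clones and 54.9 ± 1.36 CPM across the Kmt2d-/- clones at day 7. No gene of this list passed in edgeR without that term in the Kmt2d-/- clones, and none between genotypes or in the interaction in edgeR or DESeq2.

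Of 14 tested binding proteins and antagonists outside the 10 genes, Bmper rose and Crim1 fell in the Kmt2d+/+ clones. Bmper, a BMP-binding protein of the extracellular matrix, went from 12.5, 16.1 and 12.9 CPM to 30.5, 40.1 and 86.3 CPM (log2 difference 1.92, SE 0.41, edgeR adjusted p = 0.0378). Crim1, a membrane protein that binds BMPs, went from 211, 186 and 253 CPM to 67.3, 50.5 and 59.1 CPM (-1.88, SE 0.30, edgeR adjusted p = 0.0202). None of the 14 passed in edgeR in the other 4 comparisons. With the clone term Fstl1, Crim1 and Nbl1 fell in the Kmt2d+/+ clones, and Nbl1 in the Kmt2d-/- clones. DESeq2 called Fstl3, Fstl1 and Crim1 lower and Bmper higher at day 7 in the Kmt2d+/+ clones, and Crim1 and Nbl1 lower and Chrdl2 and Bmper higher in the Kmt2d-/- clones. Between genotypes it called Nbl1 lower in the Kmt2d-/- clones at day 7 and Fstl3 at day 0. Fstl1 was the most abundant, at 618 ± 78.0 and 660 ± 32.6 CPM in the Kmt2d+/+ and Kmt2d-/- clones at day 7. Neither of the 2 tested chordin-cleaving proteases passed in edgeR (Tll1 fell in the Kmt2d+/+ clones with the clone term and in DESeq2), and Bmp1, the most abundant, stood at 73.4 ± 27.1 and 129 ± 32.2 CPM.

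Of 13 tested receptors and co-receptors 1 passed in edgeR, a share near that of all genes. It was Rgma, a BMP co-receptor, which rose in the Kmt2d+/+ clones from 18.3, 38.3 and 12.3 CPM to 84.6, 67.0 and 59.7 CPM (log2 difference 1.62, SE 0.39, edgeR adjusted p = 0.0486). Acvr1 fell there with the clone term and in DESeq2. With the clone term Bambi rose and Bmpr2 fell in the Kmt2d-/- clones, where Bambi and Neo1 rose in DESeq2. Between genotypes at day 7 DESeq2 called Neo1 higher and Bmpr1b lower in the Kmt2d-/- clones. Bmpr1a, the most abundant receptor per length, stood at 177 ± 25.7 and 199 ± 54.3 CPM in the Kmt2d+/+ and Kmt2d-/- clones at day 7 (edgeR adjusted p = 0.745). Over all 10 libraries Bmpr1a lay between 147 and 252 CPM.

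Among 6 BMP Smads 3 fell and none rose from day 0 to day 7, in each genotype. Smad7 went from 109, 77.3 and 90.3 CPM to 24.7, 24.7 and 17.2 CPM across the Kmt2d+/+ clones (log2 fold change -2.05, SE 0.20, edgeR adjusted p = 0.00741). In the Kmt2d-/- clones it went from 92.1 and 75.1 CPM to 14.9 and 16.4 CPM (-2.42, SE 0.25, edgeR adjusted p = 0.0137). Smad6 fell by 1.25 on the log2 scale in the Kmt2d+/+ clones (edgeR adjusted p = 0.0433) and by 1.97 in the Kmt2d-/- clones (edgeR adjusted p = 0.0438). Smad9 fell by 1.66 and by 2.34 (edgeR adjusted p = 0.0295 and 0.0397). In edgeR none of the 6 passed between genotypes or in the interaction, whereas DESeq2 called Smad4 lower in the Kmt2d-/- clones at day 0. Their most abundant gene per length was Smad4.

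Of 14 direct target genes, Smad6, Smad7 and Atoh8 fell and Runx2 rose in the Kmt2d+/+ clones. Atoh8, a basic helix-loop-helix factor, went from 105, 51.4 and 137 CPM to 22.1, 14.8 and 27.7 CPM (log2 difference -2.18, edgeR adjusted p = 0.0265). Runx2, a factor of hypertrophic chondrocytes and osteoblasts, rose from 177, 235 and 179 CPM to 475, 306 and 368 CPM (0.96, edgeR adjusted p = 0.0382). Smad6 and Smad7 were the 2 target genes that fell in the Kmt2d-/- clones, and none rose. With the clone term 6 fell and 1 rose in the Kmt2d+/+ clones (Id2, Id4 and Smurf1 added), and 3 fell and 1 rose in the Kmt2d-/- clones (Atoh8 and Bambi added). DESeq2 called 1 higher and 6 lower in the Kmt2d+/+ clones, and 1 higher and 4 lower in the Kmt2d-/- clones, Msx2 among the latter.

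The 9 pathway genes that passed in the Kmt2d+/+ clones (Bmp8a, Bmper, Crim1, Rgma, Smad6, Smad7, Smad9, Atoh8 and Runx2) kept their direction under all 13 alternatives. None of them passed without Kmt2d+/+ clone 1 or without clone 3, where 0 genes in all passed. Bmp8a, Crim1, Smad7 and Atoh8 passed under 11 of the 13, Smad9 under 10, Smad6 under 9, and Bmper, Rgma and Runx2 under 7. Bmper did not pass in limma-voom, Rgma, Runx2 and Smad6 not in run 2 alone, and Rgma and Runx2 not with only the groups compared. In the Kmt2d-/- clones Smad7 passed under 9 of the 13 alternatives, Smad9 under 7 and Smad6 under 6, and none of these 3 without either Kmt2d-/- clone.

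Between genotypes 1 target gene passed in edgeR, at day 7. Id4, whose product blocks the DNA binding of helix-loop-helix partners, stood at 0.592, 0.722 and 0.409 CPM across the Kmt2d+/+ clones and at 1.92 and 3.10 CPM across the Kmt2d-/- clones (log2 fold change 2.12, SE 0.42, edgeR adjusted p = 0.0443). It lies in the same stretch of chromosome 13 as Bmp6 and did not pass with the regional level subtracted (1.71, edgeR adjusted p = 0.0716). Of 13 alternatives it passed in 3. Id3, the most abundant target per length, stood at 194 to 208 CPM across the Kmt2d+/+ clones and at 157 and 243 CPM across the Kmt2d-/- clones at day 7 (edgeR adjusted p = 0.992). DESeq2 passed 3 target genes at day 7, Id4 higher and Msx1 and Msx2 lower in the Kmt2d-/- clones, and Msx1 lower at day 0. In edgeR the log2 difference of Msx1, a homeobox factor, was -1.40 at day 7 (adjusted p = 0.0812) and -1.28 at day 0 (adjusted p = 0.0892), and that of Msx2 was -1.09 at day 7 (adjusted p = 0.0779).

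**Figure D4:**
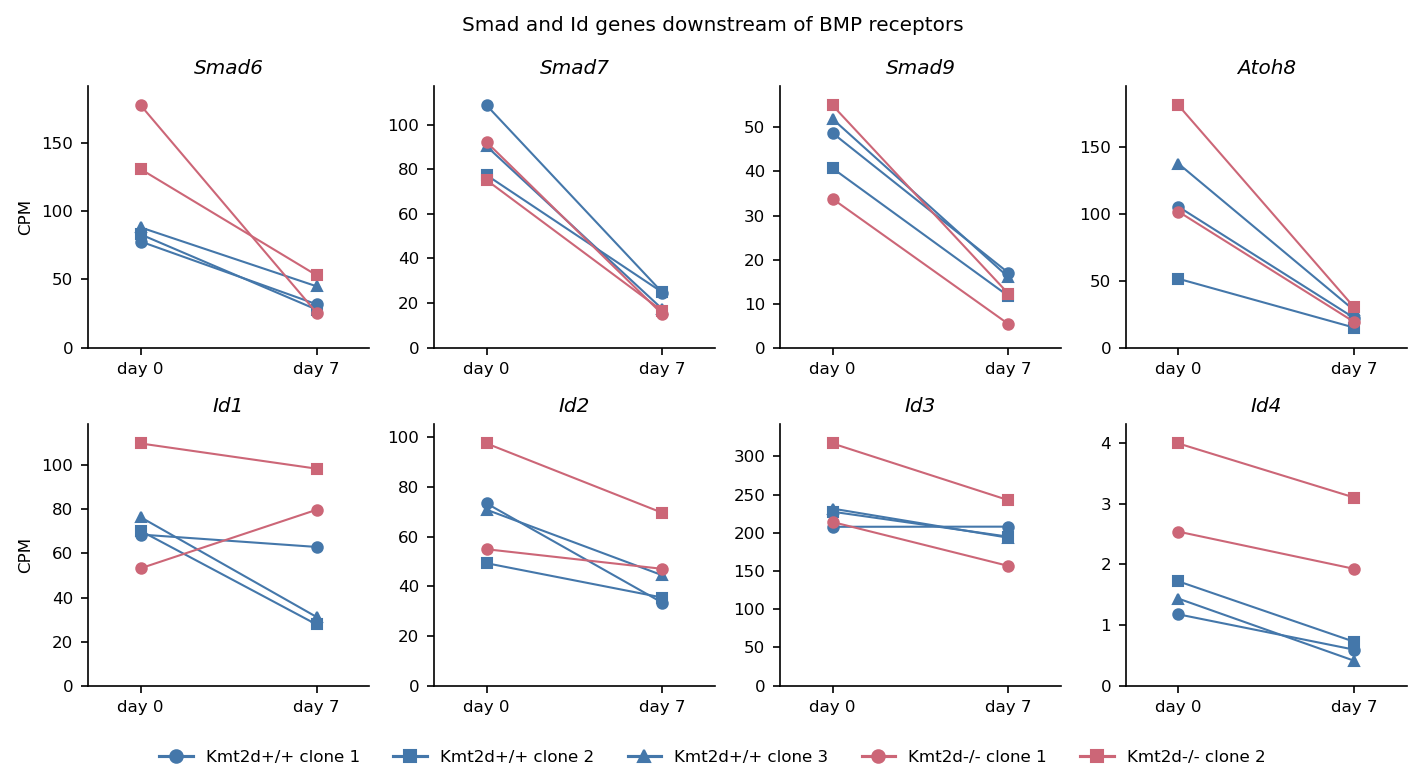
Level in CPM of Smad6, Smad7, Smad9, Atoh8 and the 4 Id genes at day 0 and day 7, each on its own axis from 0, with 1 line per clone. Smad6, Smad7, Smad9 and Atoh8 are lower at day 7 than at day 0 in all 5 clones, and Id4 lies higher in both Kmt2d-/- clones than in the Kmt2d+/+ clones at each day.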

How the data were processed

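The authors deposited gene-level estimated counts, not normalized, for 10 libraries each run on 2 flow cells (20 columns). Within a tolerance of 0.001, 0.351% of the values above 0 were whole. Salmon, edgeR, limma, DESeq2 and the build GRCm38 are named, without versions, per the submitters' processing notes. Strand use is not given in the sources used. Runs were summed per library and rounded. Symbols, positions and exon lengths came from GENCODE vM21 of GRCm38.

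One edgeR 4.0.16 quasi-likelihood model (R 4.3.3) with a mean per group was fitted to all 10 libraries, with filterByExpr (15467 genes), TMM and Benjamini-Hochberg adjustment over all genes tested. It had 6 residual degrees of freedom and a common biological coefficient of variation of 0.385. Genes passed at an adjusted p under 0.05. The standard error was the absolute log2 fold change over the square root of F. The fit was tested on simulated data. With 1 to 3 counts in a group, summed counts were compared with an exact binomial interval. Intervals cover counting error only.

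Alternatives were DESeq2 1.42.0, limma-voom (limma 3.58.1), DESeq2's size factors in edgeR, no filter, each run alone, only the groups compared, each clone left out, the regional level subtracted for Bmp6 and Id4, and a term for each clone. The same clone was sampled at both days, so clones pair the libraries. The main model had no clone term and treated the day 0 and day 7 libraries of a clone as independent, also in the genotype comparisons. Deviations from the group mean correlated between the 2 days of a clone with r = 0.395, 0.595 and 0.522 in Kmt2d+/+ and 0.506 in Kmt2d-/- clones.

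All 10 genes are named in every comparison. From each pathway list the genes passing in edgeR are named, at most 4, or else its most abundant gene per length. Genes passing only in DESeq2 or with the clone term were named after their values were seen, and a result of these is not reported here. The 2 most alike genes (on log2 of CPM plus 0.5) had a group mean of 5 CPM or more. Members, lists and the chromosome 13 segment were chosen with earlier results of these data known. The motifs, the pseudocount, the figures and the alternatives for pathway genes were chosen after the data had been seen. Of the 10 genes, 3 matched the RefSeq promoter table, and 1 of these windows lay inside an annotated exon and is not shown.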

Additional observations from a re-analysis of the deposited data

How the results depend on the processing

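For the 8 tested genes 483 values under alternatives were set beside 40 results: 438 kept direction and side of the threshold, 26 kept direction and passed, 19 changed direction and 0 lost a call, since none had passed. Of the 26, 13 came from DESeq2, which passed 1593 genes at day 7 between genotypes (290 in edgeR), 1632 at day 0 (332), 2280 in the Kmt2d+/+ day comparison (786), 986 in the Kmt2d-/- one (196) and 27 in the interaction (0). Between genotypes at day 7 limma-voom passed 533 genes, run 2 alone 184 and the groups compared alone 55. The groups compared alone gave 9 genes at day 0 and 0 in the Kmt2d-/- day comparison. With the clone as a replicate block, 2788 and 862 genes passed in the day comparisons and 0 in the interaction, and among the 8 it changed the calls of Bmp6 (both), Gdf5 and Gdf6 only.

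Leaving out 1 clone gave 10 to 272 genes between genotypes at day 7, 10 to 912 at day 0, 0 to 862 and 0 to 183 in the day comparisons of Kmt2d+/+ and Kmt2d-/-, and 0 in the interaction. Where this left 1 Kmt2d-/- clone, that clone was assumed to vary like the other groups. Without Kmt2d+/+ clone 1 or 3 none passed in the Kmt2d+/+ day comparison, Bmp8a, Crim1, Smad7 and Atoh8 included.

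Reversed directions all belonged to values that had not passed. For Bmp3 they were -1.14 (genotype, day 7; 1.72 at most, without Kmt2d+/+ clone 3), -1.47 (Kmt2d-/- day change; 1.60 without clone 2) and -1.73 (interaction; 1.33 without Kmt2d-/- clone 2), each without Kmt2d-/- clone 1. The Kmt2d+/+ day change of Bmp3 was -0.57 without clone 3, 0.62 without clone 2 and -0.14 in limma-voom. Leaving out Kmt2d+/+ clone 1, Kmt2d-/- clone 2 or Kmt2d-/- clone 1 gave Bmp4 a day 7 genotype difference of -0.14, -0.26 and 0.30, and leaving out the latter 2 gave Grem1 -0.23 and 1.85. The interaction was -1.29 for Bmp6 and -0.42 for Chrdl1 without Kmt2d+/+ clone 2, -0.0976 and -0.22 without Kmt2d-/- clone 2, and 2.75 and 0.85 without Kmt2d-/- clone 1. Gdf5 between genotypes at day 0 was -2.97 without Kmt2d-/- clone 1 and 5.68 without clone 2. Its interaction was 4.85 without Kmt2d-/- clone 1, -2.32 without Kmt2d+/+ clone 1 and 0.89 in limma-voom. The Kmt2d-/- day change was -1.19 for Gdf6 and -0.0358 for Chrdl1 without clone 2, and 3.74 and 1.03 without clone 1. The Kmt2d+/+ day change of Grem1 was 0.11 without clone 2 and -0.94 without clone 1, and that of Chrdl1 0.78 and -0.17. The cause was not tested.

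Bmp4, Nog, Grem1 and Chrdl1 had at least 64 counts in every library. Bmp2, Bmp3 and Bmp7 had at most 27, and depth limits any comparison of them.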
